A study of Rattus norvegicus with 12 samples.

Results

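The BMP Smads and their Id targets are followed here in H9c2, a cell line that was derived from the embryonic rat heart, given methylmalonic acid (MMA), folic acid (FA) or both. The members are 10 genes of the 30562 in the table, matched by symbol with 1 locus each: Smad1, Smad5, Smad9, Smad6, Smad7, Id1, Id2, Id3, Id4 and Atoh8. Smad9, Id2 and Atoh8 were put on the list because they were lower in treated groups of these same libraries. All their differences between groups are therefore given as a description, with an SE and no p-value, and no count of calls includes them. The remaining 7 members joined as relatives with no direction given for them, although results of these data were known when the list was drawn up. The 12 libraries form 4 groups of 3, which are MMA+FA, MMA alone, FA alone and control, all from 1 cell line and with no other agent named. Doses, exposure times and whether replicates were separate cultures were not given in the sources used here, so p-values measure only the spread between these libraries, which may be technical.

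Bone morphogenetic proteins (BMPs) bind paired serine/threonine kinase receptors, which phosphorylate the receptor-activated Smads Smad1, Smad5 and Smad9 (also called Smad8). These join Smad4, enter the nucleus and switch on targets, among them the Id genes and the inhibitory Smads Smad6 and Smad7, which feed back on the receptors. Id proteins lack a DNA-binding region and tie up E proteins, which other basic helix-loop-helix (bHLH) factors such as MyoD need to drive muscle genes. Atoh8 encodes a bHLH factor known as a BMP target in mouse liver and in human endothelial cells.

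Values are TPM, which scale for transcript length and give a share of the library with no record of depth, so depth and counting error are unknown. Differences are of group means of log2(TPM + 1), a scale that understates the change of low genes, and carry limma's standard error (SE). A gene was called where its p, after Benjamini-Hochberg adjustment over the 12263 genes whose mean reached 1 TPM, was under 0.05. All 10 members passed that filter, and the lowest single value among them was 1.59 TPM. The median gene lay at -0.12 in MMA+FA against control, -0.07 in MMA and -0.05 in FA, so differences are also given with each library scaled by its median ratio, so that the typical gene sits near 0. The labels call the cells cardiomyocytes, but most markers of that type were near 0. Of 9 cardiomyocyte markers analysed 1 (Tnnt2) averaged at least 1 TPM, against 5 of 8 skeletal myoblast, 6 of 6 smooth muscle and 6 of 8 fibroblast markers. Endothelial markers reached 0 of 6, with a summed level of at most 0.32 TPM in any library, leukocyte markers 1 of 5 and epithelial markers 1 of 5. Cardiomyocyte markers summed to 68.2 to 86.5 TPM in MMA+FA, 21.1 to 23.8 in MMA, 43.8 to 48.1 in FA and 15.4 to 19.8 in control libraries. Nearly all of each sum was Tnnt2, with 84.6, 67.5 and 68.7 TPM in MMA+FA and 15.02, 18.9 and 14.5 in control libraries. The sums therefore describe that gene and not the list. Skeletal myoblast markers summed to 68.96 to 81.03 TPM in MMA+FA, 89.8 to 94.2 in MMA, 92.2 to 104 in FA and 103 to 114 in control libraries. Myod1 had the highest level on that list, and without it the other 7 markers summed to 40.8 to 46.3 TPM in MMA+FA, 30.7 to 34.7 in MMA, 39.4 to 46.5 in FA and 33.2 to 39.6 in control libraries. Of these, Acta1 (1.10, SE 0.11, adjusted p = 4.1e-05) and Des (0.38, SE 0.13, adjusted p = 0.0322) were higher in MMA+FA than in control. Tnnt3 went the other way, with 10.6, 9.76 and 11.3 TPM in MMA+FA and 13.2, 13.5 and 11.6 in control libraries. Smooth muscle markers summed to 8266 to 8666 TPM in MMA+FA, 6662 to 7748 in MMA, 7534 to 8167 in FA and 6777 to 6822 in control libraries. The part of these marker shifts in the results on the BMP genes was not tested, and in bulk RNA fewer cells of a type cannot be told apart from less RNA per cell.

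The promoters of 5 members are shown, 3 of them as the members named for their low levels. Smad7 and Id4 are shown as the others whose window holds the letters of the BMP element searched for. They run from 250 bases before to 50 after the RefSeq start site on GRCr8, a different build from the mRatBN7.2 of the expression values, and 9 of the 10 members had an entry. Capitals mark 3 motifs searched on both strands. The first is GGCGCC, a core of BMP-responsive GC elements. The next is its variant GGAGCC, and the last is the Smad box CAGAC. On the other strand the variant appears as GGCTCC. The Smad box appears there as GTCTG. The Smad9 window is chr2:141106418-141106717 on the plus strand, that of Smad7 chr18:71263258-71263557 on the plus strand, that of Id4 chr17:16598244-16598543 on the minus strand, that of Id2 chr6:47470946-47471245 on the minus strand and that of Atoh8 chr4:105850330-105850629 on the minus strand.
Smad9: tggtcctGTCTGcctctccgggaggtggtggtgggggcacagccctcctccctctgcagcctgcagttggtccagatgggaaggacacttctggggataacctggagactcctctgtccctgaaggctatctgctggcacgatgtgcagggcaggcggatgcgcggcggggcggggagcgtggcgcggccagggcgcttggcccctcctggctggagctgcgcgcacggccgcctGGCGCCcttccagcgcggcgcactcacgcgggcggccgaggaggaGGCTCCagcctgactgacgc
Smad7: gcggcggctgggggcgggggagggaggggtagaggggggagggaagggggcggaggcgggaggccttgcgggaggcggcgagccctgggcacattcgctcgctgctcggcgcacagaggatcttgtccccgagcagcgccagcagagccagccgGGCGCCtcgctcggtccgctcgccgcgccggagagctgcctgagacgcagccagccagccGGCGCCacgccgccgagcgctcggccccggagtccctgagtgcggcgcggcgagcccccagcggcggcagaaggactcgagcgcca
Id4: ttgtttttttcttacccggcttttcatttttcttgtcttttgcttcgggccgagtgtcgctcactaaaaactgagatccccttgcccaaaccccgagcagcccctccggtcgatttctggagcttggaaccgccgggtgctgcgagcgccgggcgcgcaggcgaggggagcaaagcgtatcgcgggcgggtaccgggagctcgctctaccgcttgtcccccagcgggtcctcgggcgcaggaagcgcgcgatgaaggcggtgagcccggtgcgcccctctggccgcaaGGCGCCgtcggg
Id2: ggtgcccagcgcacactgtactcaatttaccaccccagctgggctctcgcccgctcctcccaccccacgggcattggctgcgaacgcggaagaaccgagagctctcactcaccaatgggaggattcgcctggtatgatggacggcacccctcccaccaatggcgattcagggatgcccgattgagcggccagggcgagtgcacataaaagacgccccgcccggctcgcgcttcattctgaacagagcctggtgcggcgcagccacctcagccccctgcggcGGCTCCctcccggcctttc
Atoh8: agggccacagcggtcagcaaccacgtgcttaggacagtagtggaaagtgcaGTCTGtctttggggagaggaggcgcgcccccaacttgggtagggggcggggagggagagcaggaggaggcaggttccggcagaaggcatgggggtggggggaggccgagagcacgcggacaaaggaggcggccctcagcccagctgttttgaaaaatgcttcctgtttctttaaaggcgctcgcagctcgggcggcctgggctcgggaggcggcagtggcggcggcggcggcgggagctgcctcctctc
GGCGCC stood in 3 of the 9 promoter windows, at 1 place in Smad9 and Id4 and at 2 in Smad7, and in 11.02% of all 33469 rat promoters of this length. The Id4 window reads ATG, the letters of a start codon, at its start site, and its GGCGCC begins 38 bases after that site. If translation starts there, the Id4 match lies in coding sequence and not in a promoter element. GGAGCC stood in 4 of 9 (Smad5, Smad9, Id2 and Id3) and in 27.9% of all, and CAGAC in 3 of 9 (Smad9, Id1 and Atoh8) and in 50.1% of all. The E-box CANNTG, the site of bHLH factors, stood in 5 of 9 and in 72.1% of all. Of the 9, Smad9 held all 3 marked motifs, with its GGCGCC beginning 15 bases before the start site, and Smad1 held none. The 8 promoters other than that of Smad5 held 55.7% to 77.7% G and C, against a median of 51.7% over all promoters. These matches describe letters in a short window and say nothing of binding.

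On TPM as deposited the lowest group mean of each member was that of MMA+FA, but the members did not share a course. Among the 7 members listed with no direction this lowest mean held for 7, beside 46.5% of all genes tested. After median-ratio scaling it held for 5 of the 7 (not for Smad5 and Id1), beside 27.9% of all genes. The highest mean was that of control in 5 of the 7, beside 47.6% of all genes, and in 3 after scaling, beside 29.2%. In 4 of the 7 (Smad1, Smad6, Id3 and Id4) the 3 MMA+FA libraries lay below all 9 others, a pattern shown by 9.84% of all genes tested. Smad1 met it by a narrow margin (at most 28.5 against at least 28.8 TPM). Smad9 and Atoh8, chosen for low values, had the same order, which is a description only. This pattern was counted on unscaled TPM and not after scaling. The members parted in what each acid did alone. All Smad9 and Smad6 libraries stood below control with either acid. Those of Id1, Id2, Id3, Id4 and Smad7 stood below it with FA and overlapped it with MMA, and those of Atoh8 overlapped it with either acid alone. Group means of Smad1 and Smad5 stayed between 85.1% and 110.3% of control. The Smad1 libraries also stood below control with MMA (at most 31.6 against at least 31.96 TPM). The margin of Smad6 with MMA was narrow (at most 11.35 against at least 11.53 TPM), and limma did not call it. The share of all genes whose libraries part in these ways with either acid alone is not given here, so these orders are a description.

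**Figure D1:**
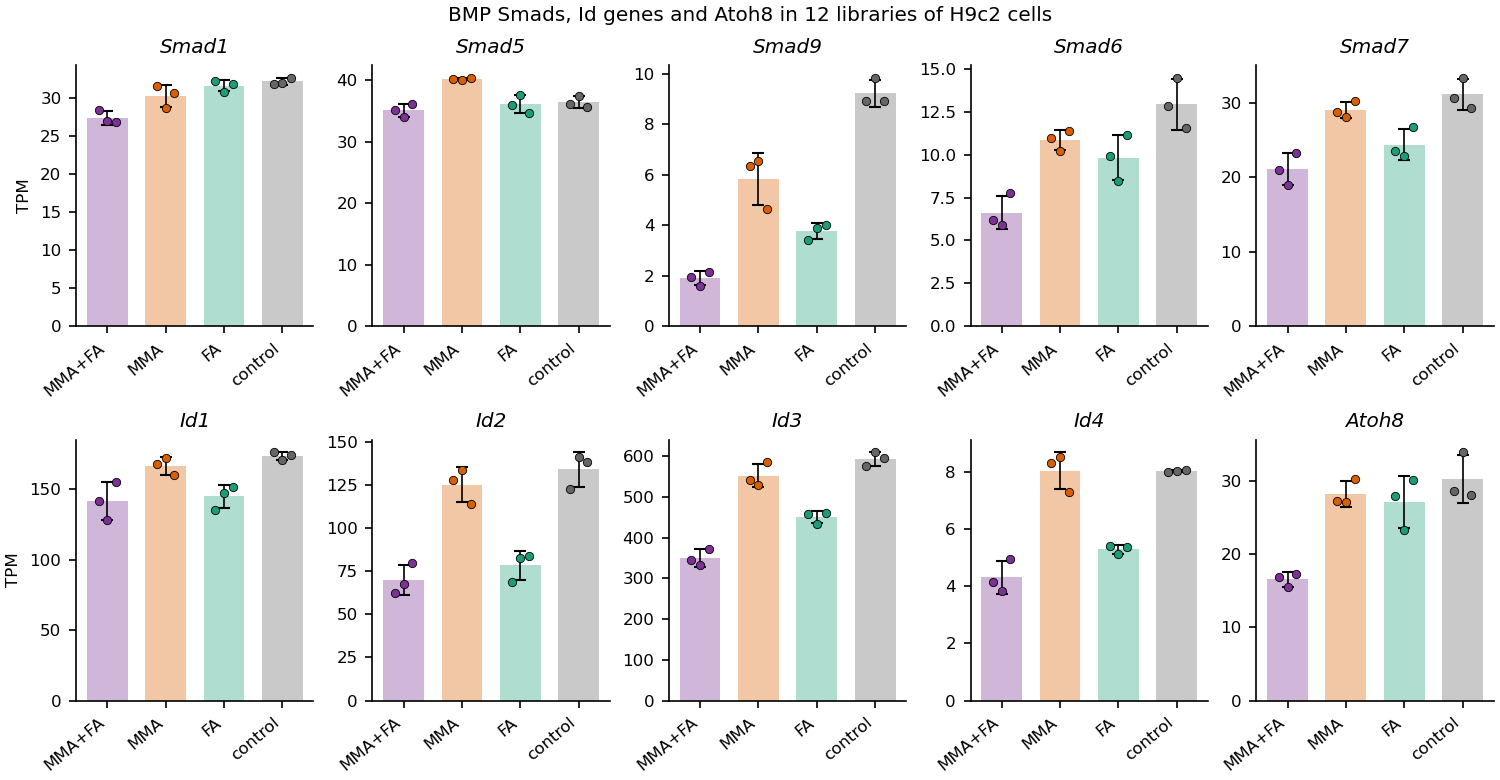
TPM (linear axes from 0) of each member in the 12 libraries, 1 panel per gene. Bars are group means, whiskers are SD (n = 3) and points are libraries. In every panel the MMA+FA mean is the lowest on this unscaled measure, which after median-ratio scaling did not hold for Smad5 and Id1. The MMA points overlap those of control for Smad7, Id1, Id2, Id3, Id4 and Atoh8.

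Of the receptor-activated Smads, which carry the BMP signal to the nucleus, Smad9 (ENSRNOG00000000091) was the scarcest and differed most between groups. It had 1.97, 1.59 and 2.14 TPM in MMA+FA, 6.35, 6.54 and 4.66 in MMA, 3.43, 3.90 and 4.03 in FA, and 8.91, 9.85 and 8.93 in control libraries. The 4 groups did not overlap one another. The mean stood at 20.6% of control with MMA+FA, 63.4% with MMA and 41.03% with FA. The log2 differences were -1.82 (SE 0.11), -0.59 (SE 0.11) and -1.10 (SE 0.11) in the same order, and -1.72, -0.52 and -1.05 after median-ratio scaling.

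Smad1 (ENSRNOG00000018483) had 28.5, 27.03 and 26.9 TPM in MMA+FA, 31.6, 28.8 and 30.8 in MMA, 32.3, 30.9 and 31.9 in FA, and 31.96, 32.04 and 32.7 in control libraries. The MMA+FA libraries were the lowest, by a narrow margin. Smad1 was lower in MMA+FA than in control (-0.22, SE 0.05, adjusted p = 0.00277), but not called after scaling (-0.10, adjusted p = 0.115). It was not called with MMA (-0.08, 95% interval -0.19 to 0.02) or with FA (-0.02, interval -0.12 to 0.08; 0.03 after scaling).

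Smad5 (ENSRNOG00000022870) had 35.1, 33.96 and 36.2 TPM in MMA+FA, 40.2, 40.02 and 40.4 in MMA, 35.9, 37.6 and 34.7 in FA, and 36.1, 37.5 and 35.7 in control libraries. The MMA libraries were the highest and overlapped no other group. Against control the MMA difference was 0.14 (SE 0.04, adjusted p = 0.0426). After scaling it was 0.22 (adjusted p = 0.00886). The call on unscaled values was lost with any 1 of the 6 MMA and control libraries left out (0.12 to 0.16, largest adjusted p = 0.135). MMA+FA (-0.05, interval -0.15 to 0.04) and FA (-0.01, interval -0.11 to 0.08) were not called against control, and both values turned positive after scaling (0.07 and 0.04).

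Together the 3 genes summed to 64.4 ± 1.63 in MMA+FA, 76.4 ± 1.51 in MMA, 71.6 ± 0.939 in FA and 77.9 ± 1.28 in control libraries (TPM, SD, n = 3 each). Of that sum Smad9 made up 2.94 ± 0.375% in MMA+FA, 7.65 ± 1.33% in MMA, 5.29 ± 0.468% in FA and 11.8 ± 0.492% in control libraries (SD, n = 3 each). The Smad9 share kept the same order of groups as its level.

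The inhibitory Smads were lowest with both acids. Smad6 (ENSRNOG00000009173), which acts mainly against BMP signals, had 6.21, 5.92 and 7.74 TPM in MMA+FA, 10.97, 10.2 and 11.3 in MMA, 9.90, 8.46 and 11.1 in FA, and 12.8, 14.5 and 11.5 in control libraries. All MMA+FA libraries lay below every other library, and the MMA and FA libraries overlapped. Smad6 fell to 51.2% of control with MMA+FA (-0.87, SE 0.11, adjusted p = 0.000174, or -0.76 after scaling). With FA it was at 75.9% (-0.37, SE 0.11, adjusted p = 0.0491). The FA call was lost after scaling (-0.32, adjusted p = 0.0815) and without FA replicate 1, FA replicate 2 or any of the 3 control replicates (-0.27 to -0.45 over the 6 libraries, largest adjusted p = 0.147). MMA was not called (-0.23, interval -0.47 to 0.01).

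Smad7 (ENSRNOG00000018359), which blocks both BMP and TGF-beta receptors, had 21.02, 18.9 and 23.2 TPM in MMA+FA, 28.8, 28.1 and 30.2 in MMA, 23.6, 22.8 and 26.8 in FA, and 30.6, 33.4 and 29.4 in control libraries. The MMA+FA and FA libraries overlapped, and so did the MMA and control libraries. Smad7 fell with MMA+FA (-0.54, SE 0.08, adjusted p = 0.00038, or -0.42 after scaling). With FA it also fell (-0.34, SE 0.08, adjusted p = 0.0198), a call lost without FA replicate 1 or any of the 3 control replicates (-0.29 to -0.41 over the 6 libraries, largest adjusted p = 0.0732). MMA was not called (-0.09, interval -0.26 to 0.08).

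The Id genes stood lower with FA and with both acids. Id3 (ENSRNOG00000026124) had the highest TPM of the 10 members, with 344, 333 and 374 TPM in MMA+FA, 543, 530.4 and 585 in MMA, 458, 434 and 462 in FA, and 575, 610.0 and 595 in control libraries. The MMA+FA and FA libraries were apart from each other and from the rest, while MMA and control overlapped. Id3 fell to 59.00% of control with MMA+FA (-0.76, SE 0.05, adjusted p = 2.35e-06) and to 76.1% with FA (-0.39, SE 0.05, adjusted p = 0.00262). With MMA it was not called (-0.10, interval -0.21 to 0.01).

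Id4 (ENSRNOG00000016099), the Id gene with the lowest TPM, had 4.15, 3.84 and 4.94 TPM in MMA+FA, 8.32, 8.51 and 7.29 in MMA, 5.41, 5.11 and 5.36 in FA, and 8.01, 8.02 and 8.06 in control libraries. The MMA+FA libraries lay below the FA libraries, and both lay below all MMA and control libraries. Id4 fell to 53.7% of control with MMA+FA (-0.77, SE 0.08, adjusted p = 6.28e-05) and to 65.9% with FA (-0.52, SE 0.08, adjusted p = 0.00554). With MMA it was at -0.001 (interval -0.18 to 0.18; 0.07 after scaling). The MMA+FA and FA calls of Id3 and Id4 held after scaling and with any 1 library of the groups compared left out.

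Id1 (ENSRNOG00000021750), a standard readout of BMP signalling, had 142, 128 and 155 TPM in MMA+FA, 168, 172 and 159.9 in MMA, 136, 148 and 152 in FA, and 176, 171 and 174 in control libraries. With MMA+FA and with FA, though not with MMA, it moved least of the Id genes from control, and its MMA+FA and FA libraries overlapped. Id1 fell to 81.6% of control with MMA+FA (-0.30, SE 0.06, adjusted p = 0.00347) and to 83.4% with FA (-0.26, SE 0.06, adjusted p = 0.0235). The FA call was lost without FA replicate 1 or any of the 3 control replicates (-0.21 to -0.30 over the 6 libraries, largest adjusted p = 0.0896). With MMA it was not called (-0.06, interval -0.20 to 0.08; 0.02 after scaling).

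Id2 (ENSRNOG00000007237) had 62.6, 67.4 and 79.8 TPM in MMA+FA, 128, 134 and 114 in MMA, 68.8, 82.8 and 83.97 in FA, and 123, 141 and 138 in control libraries. The groups formed 2 levels, MMA+FA with FA below and MMA with control above, and no library crossed between them. The mean stood at 52.1% of control with MMA+FA (log2 -0.94, SE 0.10), 93.3% with MMA (-0.10, SE 0.10) and 58.5% with FA (-0.77, SE 0.10).

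The 4 Id genes summed to 566 ± 42.4 in MMA+FA, 853 ± 12.05 in MMA, 680.2 ± 19.8 in FA and 909.6 ± 24.6 in control libraries (TPM, SD, n = 3 each). Id3 held most of that sum in every library, 61.9 ± 0.884% in MMA+FA, 64.8 ± 2.45% in MMA, 66.4 ± 1.96% in FA and 65.3 ± 0.292% in control libraries. The Id1 share was 25.02 ± 0.805% in MMA+FA, 19.5 ± 0.989% in MMA, 21.3 ± 0.901% in FA and 19.1 ± 0.809% in control libraries, and the MMA+FA libraries lay above all others in it.

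Atoh8 (ENSRNOG00000010716), the bHLH factor, had 16.8, 15.4 and 17.3 TPM in MMA+FA, 27.3, 27.1 and 30.3 in MMA, 27.9, 23.2 and 30.1 in FA, and 28.6, 33.9 and 28.02 in control libraries. The MMA+FA libraries lay below all others, and the remaining 3 groups overlapped. The mean stood at 54.7% of control with MMA+FA (log2 -0.83, SE 0.09), 93.5% with MMA (-0.09, SE 0.09) and 89.7% with FA (-0.15, SE 0.09).

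**Figure D2:**
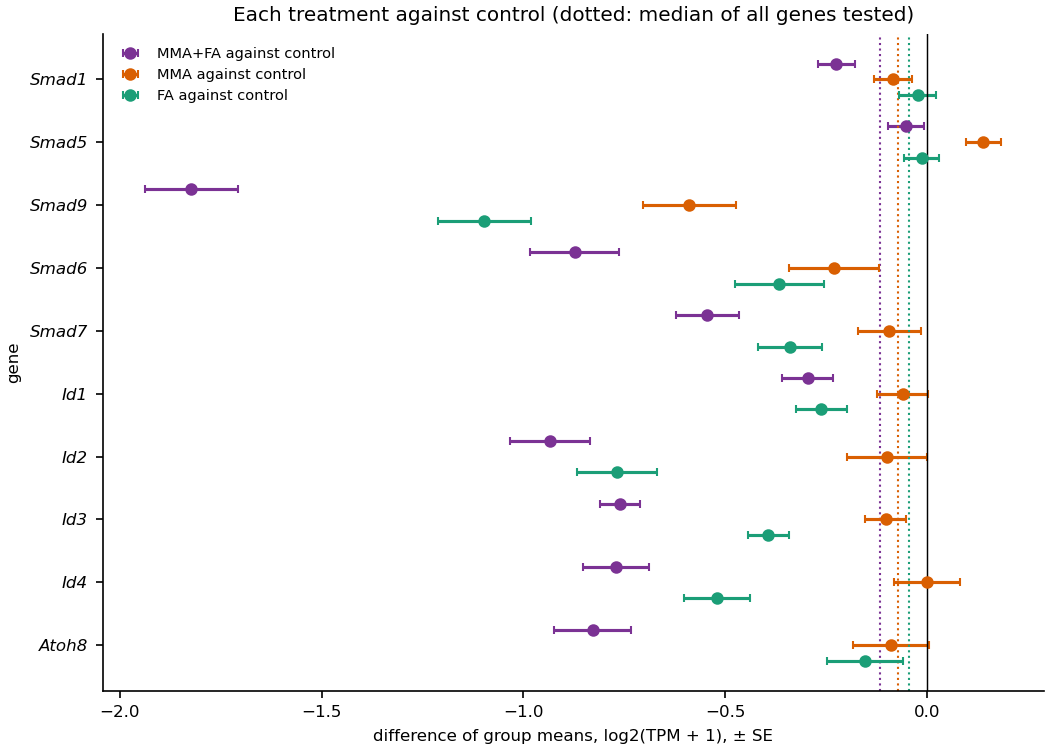
Difference of each treated group from control in group means of log2(TPM + 1), with the gene on the vertical axis, points as limma estimates and whiskers as SE; dotted lines are medians over all genes tested. The MMA+FA points reach from -1.82 for Smad9 to -0.05 for Smad5, and the MMA points lie near 0 for most members.

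Of the 7 members listed with no direction, limma called 6 lower and 0 higher in MMA+FA against control (6 and 0 at an unadjusted p under 0.05), where 32.6% of all genes tested were called lower. Their median difference was -0.54, beside -0.12 for all genes, and 5 were lower after median-ratio scaling, beside 13.5% of all genes. FA against control called 5 lower and 0 higher (5 and 0 at an unadjusted p under 0.05), where 8.70% of all genes were called lower, with a median of -0.34 beside -0.05. After scaling 4 were lower, beside 3.65% of all genes. MMA against control called 0 lower and 1 higher (0 and 1 at an unadjusted p under 0.05), where 16.5% of all genes were called lower and 3.85% higher, with a median of -0.08 beside -0.07. These 3 comparisons share the control libraries.

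Set against each other, the treated groups leave out the control libraries but reuse the treated ones, so Smad9, Id2 and Atoh8 are again described without a test. FA added to MMA, that is MMA+FA against MMA, left 6 of the other 7 members lower and 0 higher (7 and 0 at an unadjusted p under 0.05), where 9.53% of all genes were called lower, with a median of -0.45 beside -0.04. Id4 (-0.77, SE 0.08, adjusted p = 0.000148) fell. Id3, Smad6 and Smad7 fell by 0.66, 0.64 and 0.45, the adjusted p-values running from 1.83e-05 to 0.00273. Smad5 was at -0.19 (adjusted p = 0.013, or 0.0504 without MMA+FA replicate 2). Id1 was at -0.23 (adjusted p = 0.0288), which did not hold with no filter on low values (adjusted p = 0.0605) or without MMA replicate 1 or 2 or MMA+FA replicate 1 or 2 (-0.16 to -0.30 over the 6 libraries, largest adjusted p = 0.11). Smad1 was not called (-0.14, interval -0.24 to -0.04). Among the members chosen for low values, Smad9 stood at -1.23 (SE 0.11), Id2 at -0.84 (SE 0.10) and Atoh8 at -0.74 (SE 0.09).

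MMA added to FA, that is MMA+FA against FA, left 3 of the 7 lower and 0 higher (5 and 0 at an unadjusted p under 0.05), and 2 lower after scaling. Of all genes, 8.90% were called lower, and the median of the 7 was -0.20 beside -0.07. Id3 fell (-0.37, SE 0.05, adjusted p = 0.00322). Smad6 was at -0.51 (SE 0.11, adjusted p = 0.0187), a call lost without FA replicate 1 or 3 or MMA+FA replicate 2 (-0.42 to -0.61 over the 6 libraries, largest adjusted p = 0.0696). Smad1 was at -0.20 (adjusted p = 0.0225), a call lost after scaling (-0.13, adjusted p = 0.115) and without FA replicate 1 or 3 or MMA+FA replicate 2 or 3 (-0.19 to -0.23 over the 6 libraries, largest adjusted p = 0.0782). Not called were Id4 (-0.25, interval -0.43 to -0.07), Smad7 (-0.20, interval -0.38 to -0.03), Id1 (-0.03, interval -0.17 to 0.10; 0.04 after scaling) and Smad5 (-0.04, interval -0.13 to 0.06; 0.04 after scaling). As a description, Smad9 stood at -0.73 (SE 0.11), Atoh8 at -0.67 (SE 0.09) and Id2 at -0.17 (SE 0.10).

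MMA against FA called 2 of the 7 higher and 0 lower (5 and 0 at an unadjusted p under 0.05), where 2.51% of all genes were called higher. Id4 (0.52, SE 0.08, adjusted p = 0.00707) and Id3 (0.29, SE 0.05, adjusted p = 0.0102) were higher with MMA than with FA. After scaling Smad5, Smad7 and Id1 were called higher as well, 5 in all, beside 3.75% of all genes. Smad6 was not called (0.14, interval -0.10 to 0.38). The untested members stood at 0.67 (SE 0.10) for Id2, 0.51 (SE 0.11) for Smad9 and 0.06 (SE 0.09) for Atoh8.

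**Figure D3:**
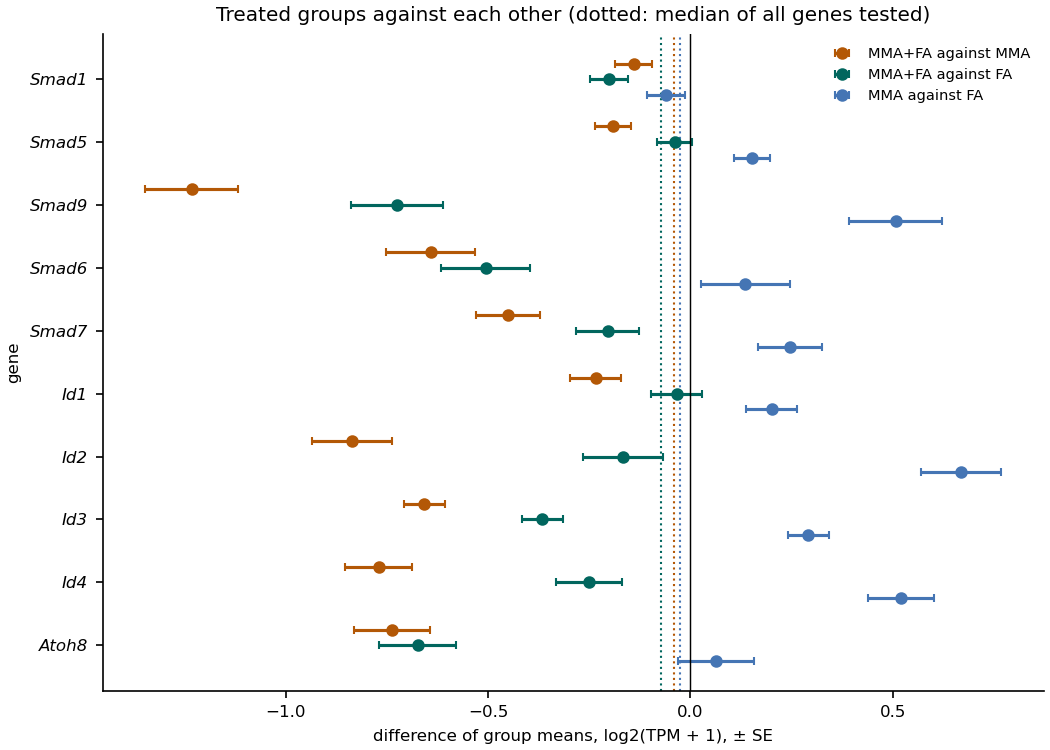
Differences between treated groups in group means of log2(TPM + 1), with the gene on the vertical axis, points as limma estimates and whiskers as SE; dotted lines are medians over all genes tested. Id2 lies at -0.84 in MMA+FA against MMA and at -0.17 in MMA+FA against FA, whereas Atoh8 lies at -0.74 and -0.67.

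Whether the joint difference was the sum of the single ones was asked by the interaction, (MMA+FA minus FA) minus (MMA minus control). limma called 0 of the 7 members lower and 0 higher (2 and 0 at an unadjusted p under 0.05), beside 1.47% of all genes called lower. Id3 had the smallest p of the 7 (-0.26, SE 0.07, adjusted p = 0.0788) and, of the alternatives run, was called only without MMA+FA replicate 3 (-0.31, adjusted p = 0.0378). As a description, the interaction was -0.58 (SE 0.13) for Atoh8, -0.14 (SE 0.16) for Smad9 and -0.07 (SE 0.14) for Id2.

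Upstream of the Smads, on TPM as deposited, the ligand Bmp4 was higher and the receptor Bmpr2 lower in all treated libraries than in control. The receptor list as a whole had a median near that of all genes. Of 13 BMP ligand genes 2 (Bmp3 and Bmp4) averaged at least 1 TPM. Bmp4, a ligand of early heart mesoderm, had 96.3, 92.1 and 105 TPM in MMA+FA, 86.2, 89.9 and 87.8 in MMA, 75.6, 80.6 and 93.7 in FA, and 60.2, 64.9 and 66.6 in control libraries. No treated library of Bmp4 overlapped control. It rose with MMA+FA (0.60, SE 0.07, adjusted p = 0.00013), with MMA (0.46, SE 0.07, adjusted p = 0.00313) and with FA (0.37, SE 0.07, adjusted p = 0.012), and each call held with any 1 library left out.

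The counts of the remaining lists are read beside the shares of all genes tested. With MMA+FA against control 32.6% of all genes were called lower and 6.67% higher, or 13.5% and 15.9% after scaling. With MMA 16.5% were called lower and 3.85% higher, and with FA 8.70% and 3.67%. Among the BMP receptors and co-receptors 3 of 7 lower and 0 higher were called with MMA+FA against control (3 and 1 at an unadjusted p under 0.05), where 32.6% of all genes were lower, with a median of -0.11 beside -0.12. After scaling 2 were lower and 1 higher, beside 13.5% and 15.9% of all genes, with a median of 0.02. With MMA 1 of 7 lower and 0 higher were called (3 and 0 at an unadjusted p under 0.05), beside 16.5% of all genes lower, and with FA 1 of 7 lower and 0 higher (1 and 0 at an unadjusted p under 0.05), beside 8.70%. Bmpr2, the type II BMP receptor, had 30.4, 28.1 and 28.8 TPM in MMA+FA, 32.5, 30.9 and 29.5 in MMA, 34.5, 34.01 and 33.04 in FA, and 37.6, 38.7 and 39.7 in control libraries. All treated libraries lay below all control libraries. Bmpr2 fell with MMA+FA (-0.40, SE 0.05, adjusted p = 0.000142) and MMA (-0.31, SE 0.05, adjusted p = 0.00281). The FA call (-0.19) was lost after scaling and without FA replicate 1 or 3 or any of the 3 control replicates (-0.17 to -0.21 over the 6 libraries, largest adjusted p = 0.119). The MMA+FA calls of Acvr1, a type I receptor (-0.18), and Rgma, a co-receptor (-0.40), were each lost without MMA+FA replicate 2, and Acvr1 also without control replicate 1 and after scaling (-0.15 to -0.24 over the 6 libraries, largest adjusted p = 0.0554). Rgma was also lost without control replicate 3 (-0.31 to -0.48, largest adjusted p = 0.0602).

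Of the secreted antagonists and decoys, 2 of 9 lower and 1 higher were called with MMA+FA against control, where 32.6% of all genes were lower, with a median of -0.03 beside -0.12. After scaling 2 were lower and 3 higher, beside 13.5% and 15.9% of all genes, with a median of 0.09. With MMA 1 of 9 lower and 0 higher were called (1 and 1 at an unadjusted p under 0.05), beside 16.5% of all genes lower, and with FA 2 of 9 lower and 2 higher, beside 8.70% lower and 3.67% higher. Bambi, a decoy receptor without a kinase and itself a BMP target, had 29.4, 28.7 and 26.1 TPM in MMA+FA, 47.3, 46.5 and 46.00 in MMA, 33.1, 32.9 and 34.5 in FA, and 36.04, 42.7 and 44.9 in control libraries. It fell with MMA+FA against control (-0.53, SE 0.07, adjusted p = 0.000236) and against MMA (-0.71, SE 0.07, adjusted p = 9.04e-05), and was higher with MMA than with FA (0.46, SE 0.07, adjusted p = 0.00659). Its MMA+FA libraries lay below all others.

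Of the Smad regulators and partners, 9 of 17 lower and 0 higher were called with MMA+FA against control (10 and 0 at an unadjusted p under 0.05), where 32.6% of all genes were lower, with a median of -0.14 beside -0.12. After scaling 6 were lower and 3 higher, beside 13.5% and 15.9% of all genes. Skil, a Smad corepressor and target, fell (-0.68, SE 0.06, adjusted p = 2.91e-05), as did Usp15 (-0.38), a deubiquitinase of receptor-activated Smads, Rnf111 (-0.35), a ubiquitin ligase that removes Smad corepressors, and Ppm1a (-0.30), a Smad phosphatase. Skil also fell with FA (-0.37, SE 0.06, adjusted p = 0.00729). Of other BMP targets 3 of 14 lower and 1 higher were called with MMA+FA against control, where 32.6% of all genes were lower, 4 of 14 lower and 2 higher with MMA, beside 16.5%, and 3 of 14 lower and 0 higher with FA (4 and 3 at an unadjusted p under 0.05), beside 8.70%. Their medians were -0.13 with MMA+FA, -0.03 with MMA and -0.01 with FA, and those of all genes -0.12, -0.07 and -0.05 in the same order. Unc5b, a netrin receptor (-0.95, SE 0.08, adjusted p = 2.11e-05), Klf10, a zinc-finger factor (-0.80, SE 0.06, adjusted p = 1.04e-05), and Runx2, a bone-forming factor (-0.56, SE 0.06, adjusted p = 8.83e-05), fell with MMA+FA.

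**Figure D4:**
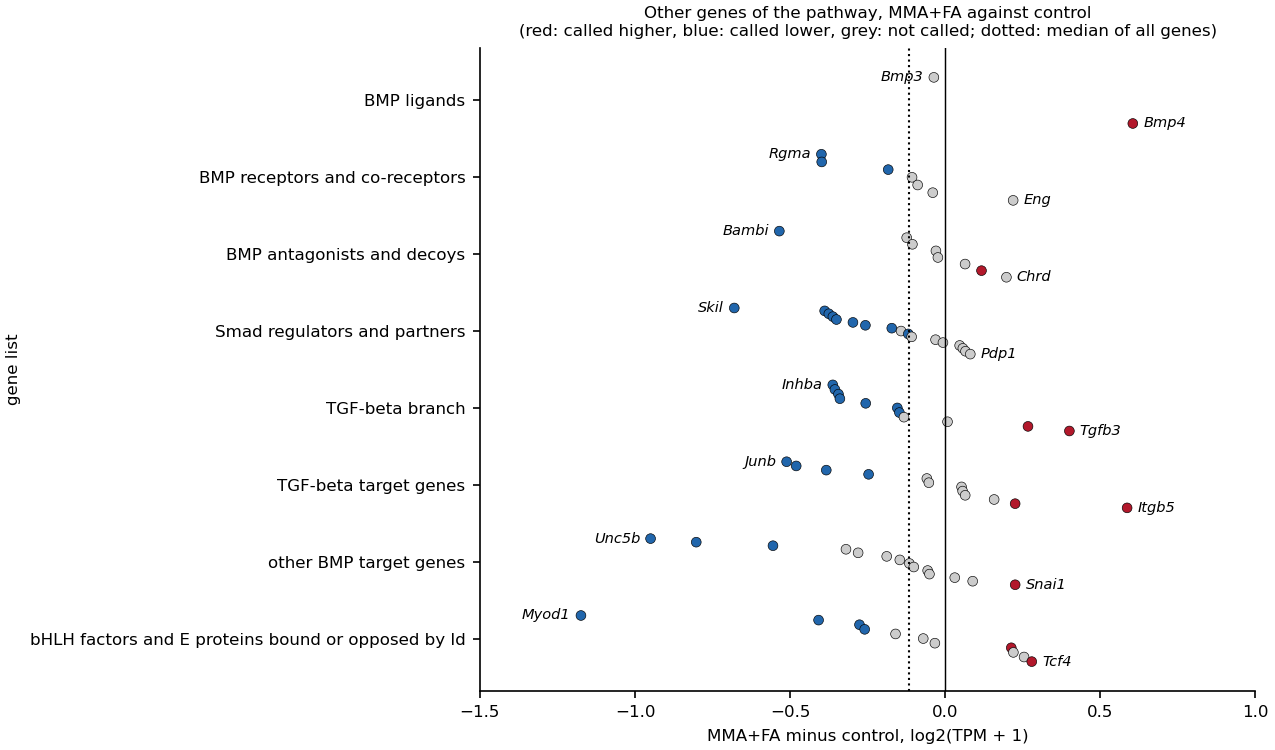
MMA+FA minus control in group means of log2(TPM + 1) for the other pathway genes that averaged at least 1 TPM and are reported here, grouped by list on the vertical axis; points are limma estimates, red where called higher, blue where called lower and grey where not called, and the dotted line is the median of all genes. Bmp4 lies at 0.60 and Myod1 at -1.17.

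The TGF-beta branch, which uses Smad2 and Smad3, had 7 of 11 lower and 2 higher called with MMA+FA against control, where 32.6% of all genes were lower and 6.67% higher, with a median of -0.15 beside -0.12. After scaling 4 were lower and 2 higher, beside 13.5% and 15.9% of all genes. Its ligand Tgfb3 (0.40, SE 0.06, adjusted p = 0.00051) and receptor Tgfbr2 (0.27, SE 0.05, adjusted p = 0.00132) rose, while Tgfbr1 (-0.36, SE 0.06, adjusted p = 0.000601) and Tgfb2 (-0.34, SE 0.05, adjusted p = 0.000641) fell. TGF-beta target genes were called in both directions with MMA+FA against control, 4 of 13 lower and 3 higher, beside 32.6% and 6.67% of all genes, with a median of 0.05. After scaling 3 were lower and 5 higher, beside 13.5% and 15.9%, with a median of 0.18. With FA 0 of 13 were lower and 5 higher, beside 8.70% and 3.67% of all genes, with a median of 0.11. With MMA 2 were lower and 3 higher, beside 16.5% and 3.85%. With MMA+FA Itgb5, an integrin subunit (0.59, SE 0.08, adjusted p = 0.000382), rose, and Junb (-0.51, SE 0.08, adjusted p = 0.000644) and Ltbp2, a matrix protein (-0.48, SE 0.07, adjusted p = 0.00042), fell.

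Among the bHLH factors and E proteins that Id proteins bind or oppose, 4 of 11 lower and 2 higher were called with MMA+FA against control (4 and 3 at an unadjusted p under 0.05), where 32.6% of all genes were lower and 6.67% higher, with a median of -0.07 beside -0.12. After scaling 3 were lower and 3 higher, beside 13.5% and 15.9% of all genes, with a median of 0.05. Myod1, the skeletal muscle bHLH factor, had 34.7, 28.2 and 32.3 TPM in MMA+FA, 58.98, 59.5 and 61.4 in MMA, 58.6, 45.7 and 61.2 in FA, and 74.2, 74.1 and 69.7 in control libraries. The MMA+FA libraries lay below all others. Myod1 fell against control (-1.17, SE 0.10, adjusted p = 1.42e-05), against MMA (-0.90, SE 0.10, adjusted p = 0.000148) and against FA (-0.77, SE 0.10, adjusted p = 0.00207). Myog, the bHLH factor myogenin of muscle differentiation, is with Myod1 on the skeletal myoblast list too. It had 18.8, 17.3 and 19.2 TPM in MMA+FA, 13.4, 14.3 and 14.8 in MMA, 20.1, 21.9 and 22.2 in FA, and 17.9, 15.6 and 13.8 in control libraries. Myog was higher with FA than in control (0.42, SE 0.08, adjusted p = 0.012) and in MMA+FA than in MMA (0.36, SE 0.08, adjusted p = 0.0137), while MMA+FA against control was not called (0.22, interval 0.04 to 0.40). The FA call was lost without control replicate 3 (adjusted p = 0.0544), and that against MMA without MMA replicate 1 or MMA+FA replicate 3 (0.32 to 0.40 over the 6 libraries, largest adjusted p = 0.0642). The E protein Tcf12 fell (-0.28, SE 0.05, adjusted p = 0.000883) and the E protein Tcf4 rose (0.28, SE 0.05, adjusted p = 0.00207) with MMA+FA.

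Likeness to the 3 genes named by the rule was measured as the root mean square difference between profiles of log2(TPM + 1), each centred on its own mean, over the 12 libraries. Nearest to Smad9 were Samd11 (0.128), Car1 (0.159), Wnt4 (0.160), Negr1 (0.170) and Nrn1 (0.240), with Id2 the nearest member at rank 12. Id2 lay at 0.332 from Smad9, beside 0.653 for the median gene, and in the other direction Smad9 ranked 960 for Id2. Nearest to Id2 was another member, Id4 (0.132), followed by Nrn1 (0.175), Gsta1 (0.182), Hmmr (0.186) and Enc1 (0.187), with Id3 at rank 9. Nearest to Atoh8 was Ccnf (0.0741), followed by the member Smad6 (0.103), and, among others, Lrrc75b (0.119) and Gse1 (0.120). Smad1 ranked 3163 and Smad5 5372 for Smad9.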

How the data were processed

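The authors deposited 1 table of TPM values per gene for 12 poly(A) RNA libraries. Its title names RSEM, and fastp, HISAT2 and the mRatBN7.2 build come from the submitters' processing notes. Versions, settings and annotation were not given in the sources used here. From the TPM values, log2(TPM + 1) of the 12263 genes whose mean reached 1 TPM was fitted with limma 3.58.1 in R 4.3.3 (4 group means, empirical Bayes with trend), with Benjamini-Hochberg adjustment over all genes and a threshold of 0.05. The fit was tested on simulated data. Promoters, levels and figures were handled in Python 3.11.15 with pandas 2.3.3, numpy 2.4.6 and matplotlib 3.10.9. Alternatives were median-ratio scaling, a pseudocount of 0.1, no filter, no trend, a replicate block and leaving out each library. An exact permutation of 3 against 3 cannot go below 0.1. The members and lists were chosen with earlier results of these data known. Named pathway genes come from the 4 smallest p-values in each direction of each list, and like genes are the 5 nearest profiles. Itgam, Pln and Krt19 were not analysed here. A few genes that the naming rule picks are not reported here, although the list counts include them.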

Additional observations from a re-analysis of the deposited data

Results flagged for a closer look

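A test of the interaction itself found that the difference made by MMA was lower in the presence of FA than in its absence for 4 pathway genes. They were 1 of 9 antagonists and decoys, 2 of 13 TGF-beta target genes and 1 of 11 on the list of bHLH factors and E proteins. The other lists had no call: 0 of 2 BMP ligands, 0 of 7 receptors and co-receptors and 0 of 17 Smad regulators and partners. The same held for 0 of 11 genes of the TGF-beta branch and 0 of 14 other BMP targets. Of all genes tested, 1.47% were called lower. Of the members, 0 of the 7 listed with no direction were called, and Smad9, Id2 and Atoh8 were left out of the test. Bambi had an interaction of -0.43 (SE 0.10, limma adjusted p = 0.0474). Tgfbi, a matrix protein and TGF-beta target, was at -0.65 (SE 0.11, adjusted p = 0.0146), and Ccn1, a matricellular protein, at -0.37 (SE 0.07, adjusted p = 0.0190). Ets2, an ETS transcription factor, was at -0.35 (SE 0.08, adjusted p = 0.0477). Leaving out 1 library ended the Bambi and Ets2 calls in 10 of 12 cases each and the Ccn1 call in 2 (FA replicate 1 and control replicate 1, largest adjusted p = 0.0565), while that of Tgfbi held (-0.55 to -0.73). The Bambi and Ets2 calls were also lost with no filter on low values (adjusted p = 0.0927 for Bambi and 0.0855 for Ets2), with no mean-variance trend (0.0719 and 0.0751) and with the replicate block (0.0786 and 0.0857).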

How the results depend on the processing

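Depth is unknown for TPM values, and 3 libraries a group limit the precision. Over all genes, 1517 were called in FA against control, 1288 in MMA+FA against FA, 965 in MMA against FA and 295 in the interaction. Median-ratio scaling gave 729 genes in MMA+FA against FA, and 5 members in place of 2 in MMA against FA (members are counted over the 7 listed with no direction). It turned positive Id1 (0.0202) and Id4 (0.0718) in MMA against control, Smad1 (0.0259) and Smad5 (0.0362) in FA against control, Smad5 (0.0717) in MMA+FA against control, and Smad5 (0.0355) and Id1 (0.0423) in MMA+FA against FA. With no filter on low values, FA against control called 928 genes, MMA+FA against FA 699, MMA against FA 410 and the interaction 181, and Id1 was lost in MMA+FA against MMA (adjusted p = 0.0605). Without the mean-variance trend, MMA against control called 0 members in place of 1 (Smad5, adjusted p = 0.0507). The Smad6 call in FA against control was lost with a pseudocount of 0.1 (adjusted p = 0.0503), no filter (0.105) and no trend (0.0619). The cause was not tested.

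The replicate block called 0 members in MMA against control (Smad5 lost, adjusted p = 0.0676), and Smad6 was lost in FA against control (adjusted p = 0.0601). The numbers do not pair the libraries: same-numbered libraries had correlated deviations of -0.124 to 0.107 over 18 pairs, and 2 of 12 libraries correlated best with their own number.

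With 1 library left out, members called ranged from 0 to 0 in MMA against control, 2 to 5 in FA against control, 6 to 6 in MMA+FA against control, 4 to 6 in MMA+FA against MMA, 1 to 3 in MMA+FA against FA, 2 to 3 in MMA against FA and 0 to 1 in the interaction. All genes called ranged in the same order from 1177 to 1898, 214 to 2571, 3602 to 4100, 869 to 1694, 352 to 2011, 132 to 2088 and 91 to 496. Values near 0 changed sign for Id4 in MMA against control (-0.0389 to 0.0602), Smad5 in FA against control (-0.0442 to 0.0128), Id1 in MMA+FA against FA (-0.101 to 0.0359), Atoh8 in MMA against FA (-0.0390 to 0.140), and Id1 (-0.0397 to 0.0973) and Id2 (-0.165 to 0.00726) in the interaction.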
